A study of Mus musculus with 16 samples.

Results

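Zfp36, Zfp36l1, Zfp36l2, Zc3h12a, Zc3h12d and Rc3h1 encode RNA-binding proteins that shorten the life of messenger RNAs, and the occupancy and marks called at these 6 genes are described here. They are 6 of 26180 genes with a curated RefSeq transcript, and were selected on a strong LSD1 peak upstream of Zfp36 that was called in inhibitor-treated cells only, with the other members added by function. The values of that peak are therefore given as a description, with nothing drawn from them. Peaks were collected over each gene body extended by 20 kb on each side, which gave 139 peaks at the 6 loci, 75 in Veh and 64 in GSK. The Zfp36 locus held 37 of them, Zfp36l2 27, Zfp36l1 25, Zc3h12d 23, Zc3h12a 19 and Rc3h1 8. The nearest LSD1 peak left out by the 20 kb limit was a GSK peak that ended 1025 bp outside the Zfp36 locus, with a fold of 3.21, and the nearest such Veh peak lay 9856 bp outside the Zc3h12a locus, with a fold of 3.06.

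The cells were CD8+ T cells from the spleens of OT1 mice, which carry a transgenic T cell receptor for an ovalbumin peptide. Anti-CD3 and anti-CD28 activated them for 48 h, and a 3-day expansion in IL-2 followed. GSK2879552 (GSK), which blocks LSD1 irreversibly, was given at 0.5 μM to the treated cells, and vehicle (Veh) to the controls. Chromatin immunoprecipitation with sequencing was done for LSD1, RNA polymerase II (Pol II), H3K27ac and the H3K4me1, H3K4me2 and H3K4me3 marks, and each of the 12 antibody and treatment groups was 1 library with 1 peak list. No spread between replicates can be had, so no difference between Veh and GSK was tested, and every value is that of 1 library. The receptor transgene was common to both groups. RNA was not measured in these files.

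LSD1 removes methyl groups from mono- and dimethylated lysine 4 of histone H3. H3K4me1 is found at enhancers, H3K4me3 at active promoters, H3K27ac at active regions of both kinds, and H3K4me2 at both kinds as well. ZFP36 (tristetraprolin), ZFP36L1 and ZFP36L2 bind AU-rich elements in the 3′ untranslated regions of transcripts such as those of cytokines, through CCCH zinc fingers, and recruit deadenylases. ZC3H12A (Regnase-1) is an endoribonuclease that cuts stem-loops in inflammatory transcripts and is itself cleaved by the protease MALT1 after T cell receptor signaling, ZC3H12D is a related Regnase, and RC3H1 (Roquin-1) recognizes stem-loops and brings in the deadenylase complex. In T cells these proteins restrain cytokine output and activation.

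Each peak is given by its fold, which is the ratio of ChIP signal to local background, and by its −log10 p, both as the authors' peak caller gave them. A percentile ranks a peak among all peaks of its own list. A peak was called shared if a peak of the same antibody in the other treatment overlapped it by at least 1 bp, and a transcription start site (TSS) peak lay within 1 kb of the start of a curated RefSeq transcript. The lists were of unequal length, from 2751 H3K27ac peaks in GSK and 7410 in Veh to 40272 H3K4me1 peaks in GSK and 34387 in Veh. H3K4me2 had 15219 peaks in Veh and 9437 in GSK, so that an H3K4me2 or H3K27ac peak seen in Veh alone was common anywhere in the genome. Depth was not computed from these files, but the paper lists unique read pairs for each library. They were more numerous in Veh for LSD1, H3K4me2 and H3K27ac, and in GSK for H3K4me1, H3K4me3 and Pol II. The gap was widest for H3K27ac, and whether depth shaped the lists was not tested. The TSSs of 8 of 8 CD8 T cell markers (Cd3d, Cd3e, Cd3g, Cd8a, Cd8b1, Cd2, Lck, Zap70) carried H3K4me3 in both treatments. H3K27ac was at 5 of these 8 in Veh and 2 in GSK, and Pol II at 4 in Veh and 6 in GSK. Of the markers of other cells, 0 of 5 for B cells and 0 of 2 for NK cells carried H3K4me3, whereas 1 of 2 for CD4 T cells (Zbtb7b) and 1 of 6 for myeloid cells (Cd14) carried it in both treatments, as did the erythroid marker Klf1. Neither H3K27ac nor Pol II was called at any of these.

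The sequences under the LSD1 summits are shown first, for the peaks on which the account turns. Each is the 200 bases around a summit from the RefSeq assembly GRCm38.p6, read 5′ to 3′ in the sense of the member gene. Capitals mark matches on either strand to 1 of 10 short patterns, which were ETS CCGGAAG, RUNX TGTGGT, AP-1 TGANTCA, E-box CAGCTG and CACGTG, GFI1 AAATCA, NFAT GGAAAA, STAT TTCNNNGAA, KLF/SP GGGCGGG and EGR GTGGGCG. The KLF/SP and EGR patterns can overlap. The Zfp36 windows were chr7:28381080-28381279 for the GSK-only peak and chr7:28383280-28383479 for the shared peak farther upstream, both on the minus strand and intergenic. The Zfp36l1 window was chr12:80115648-80115847 on the minus strand, also intergenic, and the Zc3h12a window was chr4:125124736-125124935 on the minus strand, in intron 2. The Rc3h1 windows were chr1:160906075-160906274, upstream of the gene, and chr1:160906802-160907001, in intron 1, both on the plus strand.
Zfp36 upstream, GSK only: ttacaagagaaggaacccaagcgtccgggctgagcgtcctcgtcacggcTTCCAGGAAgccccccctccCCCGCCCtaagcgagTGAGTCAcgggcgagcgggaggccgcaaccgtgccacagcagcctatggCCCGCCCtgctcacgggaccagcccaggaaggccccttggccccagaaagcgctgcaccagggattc
Zfp36 upstream, both treatments: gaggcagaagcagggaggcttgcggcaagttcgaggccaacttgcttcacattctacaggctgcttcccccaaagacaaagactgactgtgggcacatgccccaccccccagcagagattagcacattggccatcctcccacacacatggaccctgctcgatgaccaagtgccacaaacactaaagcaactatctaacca
Zfp36l1 upstream, both treatments: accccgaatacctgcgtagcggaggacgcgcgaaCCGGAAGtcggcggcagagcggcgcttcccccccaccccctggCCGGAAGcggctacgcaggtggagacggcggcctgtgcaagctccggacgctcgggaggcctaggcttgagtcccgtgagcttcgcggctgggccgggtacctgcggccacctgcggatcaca
Zc3h12a intron 2, GSK only: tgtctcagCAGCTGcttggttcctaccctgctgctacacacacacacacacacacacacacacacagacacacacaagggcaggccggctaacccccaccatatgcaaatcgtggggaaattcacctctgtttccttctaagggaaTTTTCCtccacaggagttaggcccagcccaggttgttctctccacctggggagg
Rc3h1 upstream, GSK only: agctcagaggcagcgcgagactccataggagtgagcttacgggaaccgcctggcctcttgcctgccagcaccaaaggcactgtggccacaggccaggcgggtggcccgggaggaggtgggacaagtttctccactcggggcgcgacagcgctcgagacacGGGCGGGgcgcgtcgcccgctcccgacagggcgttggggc
Rc3h1 intron 1, Veh only: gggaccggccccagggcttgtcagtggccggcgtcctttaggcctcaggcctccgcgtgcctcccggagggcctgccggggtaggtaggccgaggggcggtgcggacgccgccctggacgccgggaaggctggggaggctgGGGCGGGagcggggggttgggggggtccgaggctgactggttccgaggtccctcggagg

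The GSK-only window upstream of Zfp36 held 4 matches, a STAT pattern at bases 50 to 58, KLF/SP patterns at bases 70 to 76 and 134 to 140 on the opposite strand, and an AP-1 pattern at bases 85 to 91. Among all 19919 GSK LSD1 summits, 4.37% of windows of this length held the STAT pattern, 6.40% the AP-1 pattern and 20.3% the KLF/SP pattern. The shared Zfp36 window had none of these letters. The Zfp36l1 window held the ETS pattern at bases 35 to 41 and 78 to 84, which 5.17% of the 21252 Veh windows held at least once. The Zc3h12a window had an E-box CAGCTG at bases 9 to 14 and an NFAT pattern on the opposite strand at bases 147 to 152, found in 12.1% and 10.9% of GSK windows. Both Rc3h1 windows had 1 KLF/SP pattern each, at bases 161 to 167 in the GSK peak and 142 to 148 in the Veh peak, and 13.0% of Veh windows held it. A match is a string of letters and not a bound site. The GSK-only Zfp36 window was 68% G+C with 15 CpG dinucleotides, whereas the shared Zfp36 window had 54.5% and 3. The median over all summits was 54.5% and 5 CpG in Veh and 60% and 9 CpG in GSK, and over the member windows it was 54.5% and 3 CpG in each treatment.

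At Zfp36 (chromosome 7, 28376784 to 28379228, minus strand), LSD1 was called on both sides of the gene but not at its TSS. The GSK-only peak spanned 28380988 to 28381314 with its summit 1952 bp upstream, a fold of 5.10 and −log10 p of 21.4, which placed it at rank 764 of 19919 by p. The nearest Veh LSD1 peak lay 1770 bp away. That neighbour, 4152 bp upstream, was the strongest LSD1 peak of the 6 loci in Veh, with a fold of 8.14, −log10 p of 58.1 and rank 93 of 21252. In GSK a peak with its summit 3 bp away from it was called with a fold of 5.18, −log10 p of 20.6 and rank 849. The ratio of fold in GSK to fold in Veh was 0.637 there, the lowest of the 9 shared LSD1 pairs at the 6 loci. Of the 11666 overlapping LSD1 pairs in the whole lists, 3.83% had a ratio at or below it. That share is not adjusted for taking the lowest of 9 pairs. The genes were selected on the GSK-only peak, so nothing is drawn from setting it beside this shared peak. Signal at its position in Veh below the calling cutoff was not measured.

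**Figure D1:**
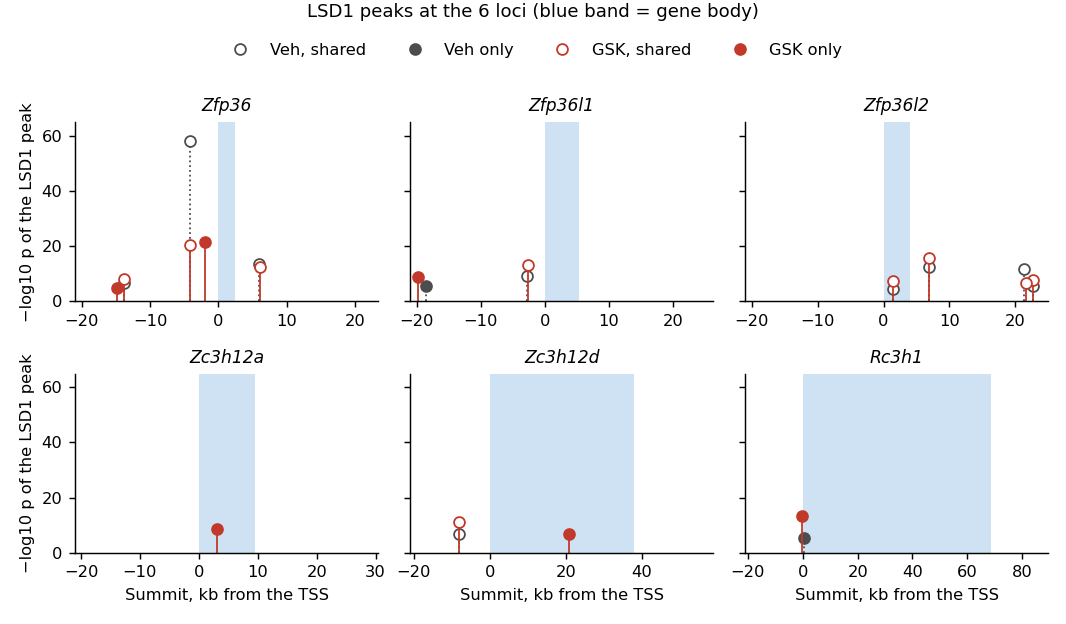
LSD1 peaks at the 6 loci. The x axis is the distance of the summit from the TSS in kb (negative is upstream), the y axis is −log10 p as deposited, grey is Veh, red is GSK, open points are shared and filled points were called in 1 treatment, and the blue band is the gene body. The Veh peak upstream of Zfp36 reached 58.1, and every other LSD1 peak at the 6 loci was at 21.4 or below.

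Histone marks were called in the same 3 kb, with H3K27ac at one place in both treatments, H3K4me1 at different places and H3K4me2 in Veh alone. In Veh, an H3K4me2 peak (28381385 to 28382054, fold 2.85, −log10 p 7.53) and an H3K27ac peak (28381393 to 28382105, fold 3.87, −log10 p 26.6) lay 70 and 78 bp beyond the position of the GSK-only LSD1 peak. In GSK, the H3K27ac peak was called again (28381454 to 28382072, fold 3.79, −log10 p 12.9), 139 bp from the LSD1 peak, and no H3K4me2 peak was called. An H3K4me1 peak in GSK alone (28380805 to 28381919, fold 2.01, −log10 p 5.53) covered the LSD1 peak, and an H3K4me1 peak in Veh alone (28382610 to 28383811, fold 2.13, −log10 p 6.35) covered the shared LSD1 peak. These H3K4me1 peaks were weak, at the 3.79 and 16.7 percentiles of their lists by p, and neither had a −log10 q of 5. No Pol II or H3K4me3 peak overlapped the GSK-only LSD1 peak or that shared LSD1 peak in either treatment. GENCODE M21 lists a second protein-coding Zfp36 transcript that starts at 28380253, 1025 bp upstream of the RefSeq TSS. The GSK-only summit was 927 bp from that start.

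**Figure D2:**
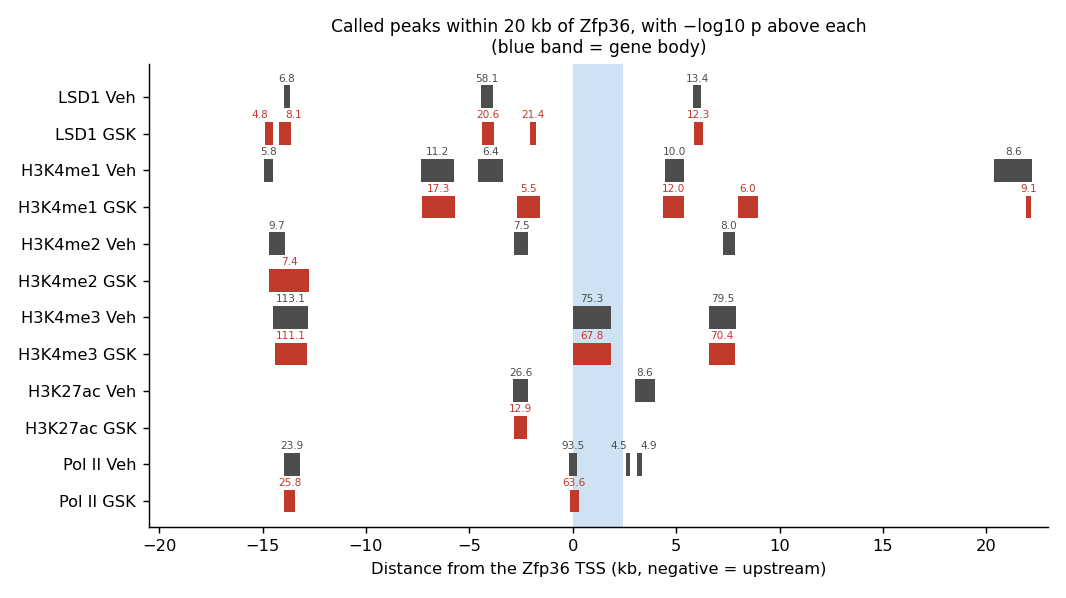
All 37 peaks at the Zfp36 locus. The x axis is the distance from the Zfp36 TSS in kb, each row is 1 library (grey Veh, red GSK), bars span the called peaks and the number over each is its −log10 p. At 2 kb upstream LSD1 and H3K4me1 bars appear in the GSK rows, H3K4me2 in the Veh row and H3K27ac in both.

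At the Zfp36 TSS itself, H3K4me3 covered 1858 bp in Veh and 1856 bp in GSK, inside the gene body, with folds of 3.61 and 3.34. Pol II was called with its summit within 16 bp of the TSS in Veh and 8 bp in GSK, with folds of 10.5 and 7.57 and −log10 p values of 93.5 and 63.6. Both Pol II peaks were among the highest of their lists, at rank 98 of 15638 and 144 of 15401. Past the 3′ end of the gene, Veh had Pol II peaks 2645 and 3331 bp from the TSS (folds 2.22 and 2.34) and an H3K27ac peak at 3494 bp (fold 2.70), and GSK had none of these.

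Zfp36l1 (chromosome 12, 80107760 to 80113013, minus strand), a paralog that also binds AU-rich elements, had 1 LSD1 peak next to the gene, 2735 bp upstream and called in both treatments. Its fold was 3.80 in Veh and 4.77 in GSK, and its −log10 p 9.36 and 13.3. H3K4me3 covered the same site in both treatments with folds of 1.91 and 2.07. H3K27ac (fold 2.88) and Pol II (fold 2.36) were called there in Veh alone. A further H3K27ac peak 900 bp upstream of the TSS had a fold of 3.21 in Veh, and no H3K27ac peak was called at the locus in GSK. The Pol II peak at its TSS was the highest of the 6 members, with a fold of 14.2 in Veh and 11.1 in GSK.

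Zfp36l2 (chromosome 17, 84183924 to 84187947, minus strand), the third AU-rich element binder, had 4 LSD1 peaks in Veh and 4 in GSK, and all were shared. The one nearest to the TSS lay in coding exon 2, 1398 bp downstream in Veh and 1477 bp in GSK, with folds of 2.61 and 3.40. The other 3 lay in intron 1 of the neighbouring gene Gm41640, from 6.82 to 22.6 kb downstream. Of these, the peak at 21.4 kb had a fold of 5.24 in Veh and 3.76 in GSK, and its summits were 218 bp apart. H3K4me3 formed a domain over nearly the whole gene, 4225 bp wide in Veh and 4184 bp in GSK, which were at the 99.9 percentile of width in both lists. The fold of this domain, deposited as 1 value for the whole region, was low, 2.61 and 2.30. H3K4me2 within 1 kb of its TSS was at the 68.6 percentile of fold in Veh and the 15.5 in GSK, with −log10 p of 14.6 and 7.94. H3K27ac at the TSS (fold 2.98) was called in Veh alone.

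Zc3h12a (chromosome 4, 125118414 to 125127881, minus strand), which encodes the endoribonuclease Regnase-1, had no LSD1 peak within its locus in Veh. In GSK 1 LSD1 peak was called in intron 2, 3045 bp downstream of the TSS, with a −log10 p of 8.56 (fold 4.40). The nearest Veh LSD1 peak lay 32496 bp from it. The peak sat inside an H3K4me1 domain of 4307 bp in Veh and 4337 bp in GSK, whose folds were 2.82 and 2.81. An H3K4me2 domain of 4325 bp over the same intron (fold 2.89, −log10 p 8.32) was called in Veh alone and was the widest peak of its list, and Pol II was called in that intron in Veh alone (fold 3.54). Zc3h12a was the only member with H3K27ac at its TSS in both treatments, with folds of 4.54 and 4.97 and −log10 p of 17.6 and 10.4.

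Zc3h12d (chromosome 10, 7832470 to 7870397, plus strand), a second gene of the Regnase family, had a shared LSD1 peak 8056 bp upstream, with a fold of 4.50 in Veh and 6.41 in GSK and −log10 p of 6.69 and 11.1. H3K4me1 and H3K4me2 were called over this site in both treatments. The H3K4me2 peak stood at the 89.3 percentile of fold in Veh and the 99.1 in GSK, with folds of 6.06 and 7.99 and −log10 p of 12.4 and 19.0, and was at rank 56 of 9437 in GSK. A GSK-only LSD1 peak lay in coding exon 3, 20815 bp downstream of the TSS (fold 4.95, −log10 p 6.66), and no mark or Pol II peak overlapped it. H3K4me3 at the TSS was called as 1 region of 2565 bp in Veh and as regions of 1379 and 340 bp in GSK. No H3K27ac peak was called at the locus.

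Rc3h1 (chromosome 1, 160906411 to 160974976, plus strand), the stem-loop binder Roquin-1, was the member with LSD1 at its TSS. The Veh peak had its summit 491 bp downstream, in intron 1, with a −log10 p of 5.38 (fold 3.71). The GSK peak had its summit 236 bp upstream, with a −log10 p of 13.2 (fold 6.24). The peaks did not overlap and were separated by 211 bp, so that each counted as found in 1 treatment although both overlapped the H3K4me3 region. Its locus, the longest of the 6 at 108566 bp, held the fewest peaks, and neither H3K4me2 nor H3K27ac was called there.

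The 6 loci held 11 LSD1 peaks in Veh and 15 in GSK. Of the Veh peaks 9 were shared (81.8%, Wilson 95% interval 52.3 to 94.9), beside 54.6% of the whole list. Of the GSK peaks 9 were shared (60%, 35.7 to 80.2), beside 57.8% of that list. Intervals cover counting error only. The fold was higher in GSK in 6 of the 9 shared pairs, beside 61.8% of all overlapping LSD1 pairs, so the pairs at these genes were close to the lists as a whole. A GSK-only LSD1 peak outside the TSS window lay within 20 kb of 4 of the 6 genes, beside 28.7% of all genes, and a Veh-only one near 1 of 6, beside 29.8%. The choice of Zfp36 rests on that contrast, so nothing is read from the first of these counts.

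Other antibodies had peaks on some of these LSD1 peaks. In Veh, H3K4me1 peaks overlapped 4 of the 11 LSD1 peaks (39.7% of all Veh LSD1 peaks), H3K4me2 2 (36%), H3K4me3 4 (46.4%), H3K27ac 2 (21.1%) and Pol II 2 (24.8%). In GSK, H3K4me1 peaks overlapped 5 of the 15 (40.6% of all GSK LSD1 peaks), H3K4me2 4 (31.1%), H3K4me3 5 (57.7%), H3K27ac 0 (9.21%) and Pol II 3 (24.5%). With 11 and 15 peaks these counts are small, and none was tested against the lists.

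For the other antibodies the shared share of the peaks at the loci is given beside that of the list. H3K4me1 had 17 of 22 Veh peaks shared (list 87.8%) and 16 of 21 GSK peaks (list 75.2%). H3K4me2 had 4 of 9 in Veh (list 55.3%) and 4 of 4 in GSK (list 89.2%), and H3K4me3 had 11 of 11 (list 97.3%) and 12 of 13 (list 91.1%). H3K27ac had 3 of 8 in Veh (list 35.2%) and 3 of 3 in GSK (list 95%). With the Veh list shortened to the length of the GSK list it too held 3 peaks at the loci. At that length 2 of 3 were shared in each treatment. Pol II had 7 of 14 in Veh (list 39.1%) and 7 of 8 in GSK (list 39.6%), and the GSK interval, 52.9 to 97.8%, lay above the list value. Of those 8 Pol II peaks, 6 were at the TSSs of the members, and 88.2% of all genes with a GSK Pol II peak at a TSS also had one in Veh. A GSK-only H3K4me1 peak outside the TSS window lay near 4 of the 6 genes (35.3% of all genes), and a Veh-only one near 3 (17.6%).

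**Figure D3:**
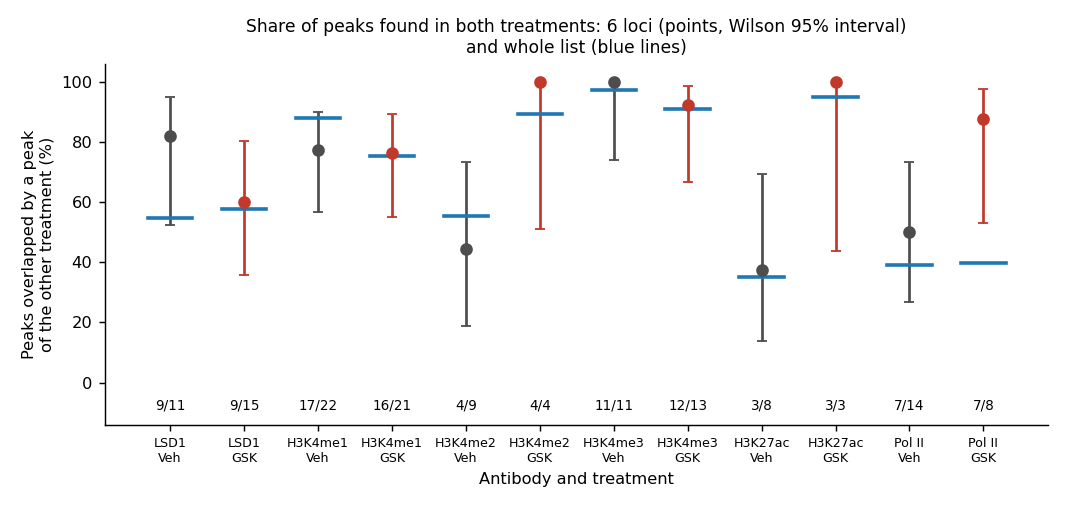
Share of peaks that a peak of the other treatment overlaps. Points are the peaks at the 6 loci with Wilson 95% intervals (grey Veh, red GSK, counts under each), blue lines are the whole lists, and the y axis is in percent. The Pol II GSK point, 7 of 8, is the one whose interval does not reach its list value of 39.6%.

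All 6 TSSs carried H3K4me3 and Pol II in both treatments. Over all genes, H3K4me3 was called at the TSS of 50% in Veh and 51.1% in GSK, Pol II of 29.3% and 24.9%, and all 4 together at 21.9%. LSD1 was at the TSS of 1 member, Rc3h1, in Veh and in GSK, whereas 36.3% of all genes had it in Veh and 41.6% in GSK. Among the 5732 genes with H3K4me3 and Pol II in both treatments, 24.4% had no Veh LSD1 peak at a TSS, and 5 of the 6 members were in that state. With a window of 2.5 kb on each side of the TSS the LSD1 counts were 3 in Veh and 4 in GSK. With GENCODE TSSs the GSK count was 2, by the second Zfp36 start. The share of all genes was not computed for these settings, and the shares above are for 1 kb and RefSeq. H3K4me1 was at the TSSs of Zfp36l2 and Zc3h12d in Veh (2 of 6, 30.3% of all genes) and of Zfp36l2 in GSK (1 of 6, 36.8%). H3K4me2 was at those of Zfp36l2 and Zc3h12a in Veh (2 of 6, 39%) and of Zfp36l2 in GSK (1 of 6, 28.2%). With a window of 0.5 kb the H3K4me1 counts were 0 in both treatments, so these peaks lay at the edges of the window. H3K27ac was at 3 TSSs in Veh, those of Zfp36l1, Zfp36l2 and Zc3h12a (20.5% of all genes), and at that of Zc3h12a in GSK (8.58%).

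**Figure D4:**
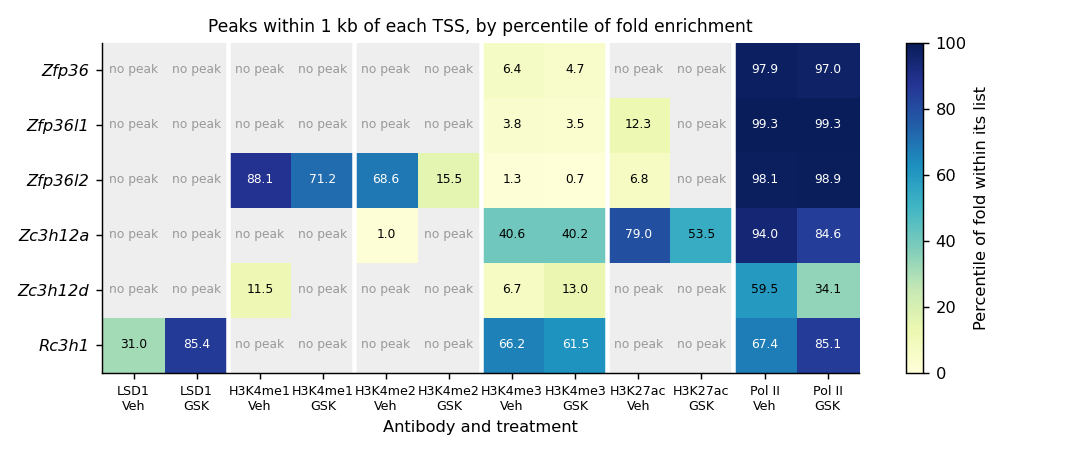
Percentile of fold, within its own list, of the highest peak within 1 kb of each TSS. Rows are the 6 genes, columns the 12 libraries, and grey cells have no peak. The Pol II cells of Zfp36, Zfp36l1, Zfp36l2 and Zc3h12a are at 84.6 or above, while the H3K4me3 cells of the 3 Zfp36 genes are at 6.35 or below. Over all genes with a Pol II TSS peak in both treatments, the median was 81.4 in Veh and 81.2 in GSK.

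The selection on an LSD1 peak named no Pol II or H3K4me3 value, but the members were chosen with earlier results of these data known. At the TSSs of the 3 Zfp36 genes, Pol II was among the highest folds of its lists and H3K4me3 among the lowest. Their Pol II folds ranged from 10.5 to 14.2 in Veh and from 7.57 to 11.1 in GSK, at the 97.0 percentile or above. Their H3K4me3 folds ranged from 2.30 to 3.61, at the 6.35 percentile or below, although by −log10 p the same regions stood at the 42.4 to 65.3 percentiles and by width at the 88.9 or above. Over all genes with a Pol II TSS peak in both treatments, the median fold percentile was 81.4 in Veh and 81.2 in GSK. For H3K4me3 the same medians were 56.1 and 57.9. Zc3h12d had the lowest Pol II folds of the members, 4.31 in Veh and 3.18 in GSK. Rc3h1 had the highest H3K4me3 folds, 6.55 and 6.34.

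The fold of the Pol II peak was lower in GSK at 5 of the 6 TSSs, the exception being Rc3h1 with 4.68 in Veh and 4.90 in GSK. The ratio of GSK to Veh fold was lowest at Zc3h12a, 0.617, with 7.85 in Veh and 4.85 in GSK. Across the 5759 genes with a Pol II peak at the TSS in both treatments, 82.4% had a lower fold in GSK, so the count at the members was that of the lists. By percentile, which takes account of the list, Pol II was lower in GSK at 4 members (51.8% of those genes) and higher at Zfp36l2 and Rc3h1. H3K4me3 fold was lower in GSK at 4 of 6 (40.7% of 12997 genes) and its percentile at 5 of 6 (44.7%). The ratio of GSK to Veh H3K4me3 fold was between 0.882 and 1.11 at the 6 members. The 1.11 was at Zc3h12d, where regions of unlike width were compared, 2565 bp in Veh and 1379 bp in GSK. A GSK region of 340 bp that overlapped the same Veh region, outside the TSS window, had a ratio of 0.679.

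**Figure D5:**
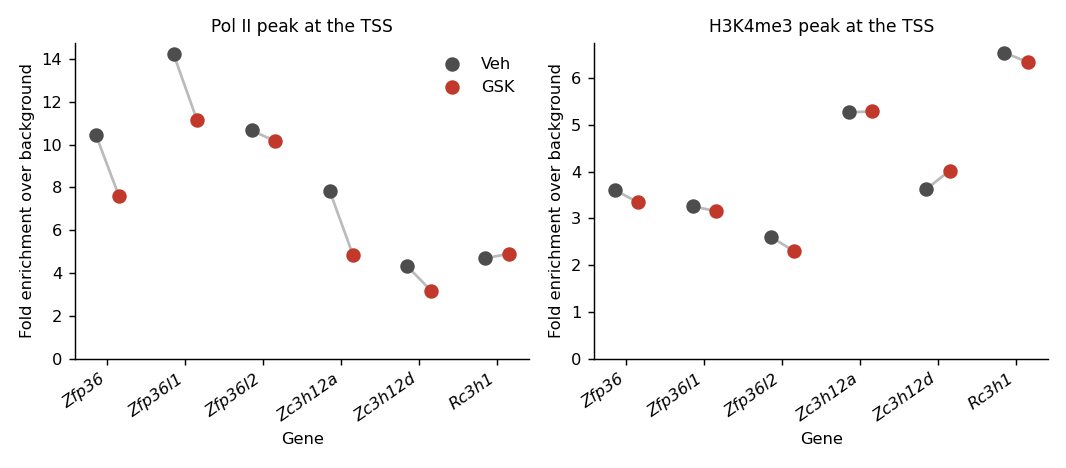
Fold enrichment over local background of the Pol II (left) and H3K4me3 (right) peak at each TSS, grey for Veh and red for GSK, with 1 library per point and no error bar. Pol II fold was 7.85 in Veh and 4.85 in GSK at Zc3h12a and 10.5 and 7.57 at Zfp36. The H3K4me3 points of each gene lie close together. At Zc3h12d they are for regions of 2565 bp in Veh and 1379 bp in GSK.

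Genes with the promoter pattern most like each member were sought over all 12 percentiles, with 0 where no peak was called, by Euclidean distance. Zfp36 was nearest to Id2 and Ier2, at distances of 1.67 and 4.95 beside a median of 138 to all genes. Zfp36l1 was nearest to Myc and Tnf (3.92 and 10.8), and Zfp36 was its 8th nearest gene. The other members were each farther from their nearest member than Zfp36 and Zfp36l1 were from each other. Among all genes, the nearest member ranked 424 for Zfp36l2, 1201 for Zc3h12a, 4146 for Rc3h1 and 11868 for Zc3h12d. These ranks do not order the members by distance. Among these members, the distance to the nearest member was smallest for Zc3h12d and largest for Zfp36l2. The median distance to all genes was also smallest for Zc3h12d and largest for Zfp36l2. Zfp36l2 was nearest to Clec2d and Lfng at the larger distances of 52.6 and 56.5. Zc3h12a was nearest to Prmt5 and Sp1 (20.0 and 25.4), Zc3h12d to Brd1 and Sash3 (17.1 and 17.8) and Rc3h1 to Mppe1 and Alg10b (23.5 and 25.9). Each likeness is over 12 lists and is a description.

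Genes that act with these proteins were set beside them. Of 32 genes of the decay machinery (deadenylase, decapping, exosome and exonuclease subunits) 31 had a curated TSS, and all 31 carried H3K4me3 in both treatments. LSD1 was at the TSS of 21 of these in Veh and 29 in GSK (36.3% and 41.6% of all genes), and Pol II of 27 and 25 (29.3% and 24.9%). Where LSD1 was called in both, its percentile was higher in GSK at 14 and lower at 6, beside 64.4% higher over all genes, with a median difference of 13.1 points beside 6.23. These genes were not matched to all genes for activity. Of 12 other AU-rich element or stem-loop binders, which include the paralogs Rc3h2, Zc3h12b and Zc3h12c, 9 had LSD1 at the TSS in Veh and 12 in GSK, and all 12 had H3K4me3 in both. Of 10 regulators, such as the kinase p38α (Mapk14) and the Regnase-1 protease Malt1, 7 had LSD1 in Veh and 8 in GSK. H3K4me2 was at 7 of the 10 in Veh and at 0 in GSK, beside 39% and 28.2% of all genes with the shorter GSK list. Of 19 genes whose transcripts these proteins bind, 10 had LSD1 in each treatment and 16 had H3K4me3 in both, and Il2 and Il6 had no peak of any antibody at their TSS.

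The extremes of these lists by percentile of fold, among genes with a TSS peak in both treatments, were as follows, with no test. Genes with the peak in 1 treatment only, such as Myc and Icos for LSD1 in Veh, were left out of this ranking. For LSD1, Ifng, the interferon gamma gene, stood at the 81.0 percentile in Veh and 19.0 in GSK, and the decapping gene Dcp1b at 31.4 and 86.2. For Pol II, Cnot9, a subunit of the deadenylase complex, stood at 87.9 and 16.0, and Ikbkb, a kinase of NF-κB signaling, at 16.6 and 86.2. The decapping scaffold gene Edc4 was the extreme toward Veh for H3K4me1 (86.7 in Veh, 42.2 in GSK) and for H3K4me2 (98.1 and 28.1). Toward GSK the extremes were Malt1 for H3K4me1 (20.6 and 41.7) and Cnot11 for H3K4me2 (48.3 and 82.4). For H3K27ac they were Cnot3 (79.6 and 19.4) and Ppp2ca (27.5 and 68.2), subunits of the deadenylase complex and of a phosphatase. The H3K27ac fold of Cnot3 was 4.57 in Veh and 4.31 in GSK, and that of Ppp2ca 3.54 and 5.29. Over the 2159 genes with H3K27ac at the TSS in both treatments, the percentile was lower in GSK at 1465 and the fold at 227. For H3K4me3 the differences were smaller, with 65.6 and 56.9 at Mapk14 and 49.9 and 65.9 at Zc3h12b.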

How the data were processed

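Peaks of 12 ChIP libraries were analysed, and the 4 input samples were not used. The authors aligned reads to mm10 with Bowtie2, took out PCR duplicates and ran MACS2 against input, with 1 list per library. They state a p-value cutoff of 0.001. The lowest −log10 p was 3.00 to 3.01 in the LSD1 and Pol II lists. In the histone lists it was 4.99 to 6.47, with a lowest −log10 q of 3.01 to 3.03, so the lists were not equally strict. The authors deposited, per peak, a fold (ratio of signal to background), a −log10 p, a −log10 q and a whole-number score, which was not used. LSD1 and Pol II lists held narrow peaks with a summit, and histone lists broad regions without one, for which the centre was used. Depth was not computed from the files.

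Loci, TSSs and exons came from curated RefSeq transcripts of GRCm38.p6, and every peak lay within its chromosomes. Overlaps and ranks were computed in Python 3.11.15 with pandas 2.3.3, and Wilson intervals with scipy 1.17.1; the overlap code was tested on simulated data. All 6 members were named, with every LSD1 peak and the 2 genes nearest in pattern. The extremes per antibody of the wider lists were taken among genes with a TSS peak in both treatments. The members and lists were chosen with earlier results of these data known. Alternatives changed the flank, cutoff, list length, overlap, TSS window, annotation and ranking. Pat1b had no match among the curated symbols. Part of the cell marker check is not reported here.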

Additional observations from a re-analysis of the deposited data

How the results depend on the processing

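Over 53 results, 215 comparisons with an alternative were made, and 1 changed direction: the H3K4me3 peak at Zc3h12a, which stood at the 40.6 percentile in Veh and 40.2 in GSK by fold, was 0.102 points higher in GSK by −log10 p. The GSK-only state of the peak upstream of Zfp36 did not change with a 1 kb allowance, the stricter cutoff or equal list lengths. The genes were selected on that state, the −log10 p was 21.4 and the nearest Veh LSD1 peak lay 1770 bp away. None of these checks could therefore change it, and nothing is drawn from them. Of 72 shares of shared peaks, 9 left the interval of the reported share, and the cause was not tested. With the stricter cutoff (−log10 p or q of at least 5) the share was 92.9% for H3K4me1 in Veh, 14.3% for H3K4me2 in Veh, 77.8% for Pol II in Veh, and 100% for H3K4me1, H3K4me3 and Pol II in GSK. Equal list lengths gave 100% for H3K4me3 in GSK, loci of 10 kb gave 100% for Pol II in GSK, and peaks within 1 kb counted as shared gave 100% for LSD1 in Veh.

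Of 60 counts of members with a TSS peak, 13 moved by over 1.5 times. The share of all genes was not computed under these alternatives. A window of 2.5 kb gave 3 for LSD1 in Veh, 4 for LSD1 in GSK, 4 for H3K4me1 in Veh and in GSK, and 2 for H3K27ac in GSK. A window of 0.5 kb gave 0 for H3K4me1 in Veh and in GSK, 1 for H3K4me2 in Veh and 0 for H3K4me2 in GSK. GENCODE TSSs gave 2 for LSD1 and 3 for H3K4me1 in GSK. The stricter cutoff gave 1 for H3K4me1 in Veh and 0 for H3K4me2 in GSK. The H3K4me3 and Pol II counts were 6 under each of these alternatives. Of 48 peak numbers at the loci, 34 stayed within 1.5 times. Loci of 50 kb gave 17 LSD1 peaks in Veh and 27 in GSK, 40 and 37 for H3K4me1, 16 for H3K4me2 in Veh, 6 for H3K27ac and 14 for Pol II in GSK. Loci of 10 kb gave 7 LSD1 peaks in Veh and 2 H3K4me2 peaks in GSK. The stricter cutoff gave 14 and 13 for H3K4me1, 1 for H3K4me2 in GSK and 9 for Pol II in Veh. Equal list lengths gave 3 H3K27ac peaks in Veh, the number in GSK. No paired analysis was possible because each antibody and treatment had 1 library, which also limits every comparison here to these libraries. Depth could not be matched from peak lists.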

Other observations

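Other genes start inside the 6 loci, and several LSD1 peaks lay at their TSSs rather than at those of the members. At the Zfp36 locus, LSD1 was called in both treatments near the TSS of Plekhg2 (folds 4.70 in Veh and 4.67 in GSK) and at the start shared by Med29 and Paf1, a subunit of a transcription elongation complex (folds 4.24 and 4.81), where Pol II had folds of 8.95 and 8.35. A GSK-only LSD1 peak in intron 2 of Paf1 had a −log10 p of 4.75. At the Zfp36l1 locus, the TSS of 2310015A10Rik had an LSD1 peak in Veh (−log10 p 5.43) and another in GSK (−log10 p 8.79), 568 bp apart. Pol II was called at that TSS in GSK alone (fold 3.20), and H3K27ac in Veh alone (fold 3.53). At the Zfp36l2 locus, the TSS of Gm41640 carried H3K27ac in both treatments (folds 2.61 and 3.24) and Pol II in Veh alone (fold 3.40).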
